A study of Mus musculus with 20 samples.

Results

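The vacuolar H+-ATPase (V-ATPase) is a proton pump, and several of its subunits exist as isoforms encoded by separate genes. The 10 genes followed across the 4 groups of the series were Atp6v0a1, Atp6v0a2 and Atp6v0a4 (a subunit), Atp6v0d1 and Atp6v0d2 (d subunit), Atp6v1b1 and Atp6v1b2 (B subunit), Atp6v1c1 and Atp6v1c2 (C subunit), and Atp6v1g1 (G subunit). They were found by gene symbol, and all 10 were present in both count tables among 50559 genes. The genes were chosen by measured values, since Atp6v0a4 was among the largest differences in read counts between the FGF19-type tumors and the Trp53-edited tumors. Every comparison of these 10 genes that uses the Trp53-edited tumors is therefore given as a description, with no test.

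The libraries were bulk RNA-seq of livers and liver tumors of wild-type female C57BL/6J mice, which were young adults when plasmids were injected into the tail vein under pressure, a method that delivers DNA to hepatocytes. Aldafermin+MYC tumors (n = 5) carried MYC and the FGF19 analog Aldafermin, FGF19+MYC tumors (n = 5) carried MYC and human FGF19, and sgTrp53+MYC tumors (n = 5) carried MYC and a CRISPR plasmid against Trp53. MYC was driven by the EF1a promoter and integrated by the Sleeping Beauty transposase. Livers (n = 5) are labelled non-treated, while a figure legend of the study describes control livers that received a fluorescent protein plasmid. Which of these applies was not resolved. Tumors came from separate mice according to the same legend. No group received MYC alone. The sgTrp53+MYC libraries stood alone in a second table, so a difference between tables and a difference between groups cannot be told apart.

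The V-ATPase has a membrane part, V0, through which protons pass, and a cytosolic part, V1, which hydrolyzes ATP. It acidifies endosomes, lysosomes and secretory vesicles in every cell and, in specialized cells, the space outside the cell. The a subunit anchors V1 to V0 and directs the pump to a membrane. Its a1 and a2 forms are widespread, a3 (Tcirg1) is known from osteoclasts and lysosomes, and a4 is known from acid-secreting cells of kidney, inner ear and epididymis. The B1 form is likewise known from such cells, and the d2 form from osteoclasts and macrophages. In bulk tissue, fewer cells of a type and less RNA per cell cannot be told apart.

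Promoter windows of 300 bases, from 250 before to 50 after the gene start, were taken from RefSeq on build GRCm38.p6, whose table held 5 of the 10 genes. Those printed set the isoforms that were nearly silent in liver, a4 and B1, beside isoforms that liver expressed, a1 and d1. Capitals mark CpG dinucleotides, and each sequence runs 5′ to 3′ on the strand of its gene.
Atp6v0a4, chr6:38124537-38124836, minus strand: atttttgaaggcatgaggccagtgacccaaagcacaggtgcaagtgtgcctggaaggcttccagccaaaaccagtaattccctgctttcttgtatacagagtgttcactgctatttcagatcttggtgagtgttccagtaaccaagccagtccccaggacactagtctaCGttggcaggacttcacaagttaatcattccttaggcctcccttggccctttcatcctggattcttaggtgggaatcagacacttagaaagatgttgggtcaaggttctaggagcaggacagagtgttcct
Atp6v1b1, chr6:83742767-83743066, plus strand: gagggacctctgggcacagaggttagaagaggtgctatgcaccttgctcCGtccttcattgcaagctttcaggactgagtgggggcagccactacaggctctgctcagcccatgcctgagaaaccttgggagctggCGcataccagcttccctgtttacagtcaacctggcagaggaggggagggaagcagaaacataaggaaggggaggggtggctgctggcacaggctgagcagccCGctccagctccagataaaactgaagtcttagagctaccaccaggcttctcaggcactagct
Atp6v0a1, chr11:101010148-101010447, plus strand: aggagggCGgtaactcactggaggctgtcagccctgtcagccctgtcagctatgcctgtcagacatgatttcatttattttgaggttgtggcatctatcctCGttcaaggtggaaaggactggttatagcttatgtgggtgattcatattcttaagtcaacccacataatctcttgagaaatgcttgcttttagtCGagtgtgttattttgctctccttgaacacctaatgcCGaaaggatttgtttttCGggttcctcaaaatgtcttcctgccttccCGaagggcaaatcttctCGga
Atp6v0d1, chr8:105566015-105566314, minus strand: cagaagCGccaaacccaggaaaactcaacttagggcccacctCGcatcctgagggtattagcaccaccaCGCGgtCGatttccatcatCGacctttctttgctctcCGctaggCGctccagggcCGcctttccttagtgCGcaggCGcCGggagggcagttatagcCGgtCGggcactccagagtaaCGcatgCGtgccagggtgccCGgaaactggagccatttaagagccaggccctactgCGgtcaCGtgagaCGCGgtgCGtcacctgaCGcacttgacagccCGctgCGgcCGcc
The Atp6v0a4 window held 1 CpG and the Atp6v1b1 window 3, against a median of 7 over 32851 windows of the same length. The Atp6v0a1 window held 7 and the Atp6v0d1 window 26. At least 26 CpG stood in 16.9% of all windows, and at most 1 in 14.1%. A low count did not separate silent from expressed isoforms in general, since the window of Atp6v1c2, a gene with almost no reads in any group, held 22.

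In all, 5 motifs were searched on both strands. The E-box CACGTG, whose longer form TCACGTG is read by the MiT/TFE factors that drive lysosomal genes, was found in the Atp6v0d1 window with its first base 3 bases before the start, and the longer form matched there on both strands over the same bases. CACGTG stood in 7.15% and TCACGTG in 3.77% of all windows. The forkhead motif TGTTTAC, present in 3.65% of windows, occurred once in the Atp6v1b1 window, 98 bases before the start. The GC box GGGCGG, present in 35.7% of windows, occurred in those of Atp6v0a1 and Atp6v1c2. TATAAA, present in 13.6%, occurred in none of the 5 windows, and the Atp6v0a4 window matched none of the motifs. These matches describe letters in the reference and not binding.

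Levels below are CPM (reads of a gene relative to the library's total) after TMM scaling, which aligns the bulk of genes between libraries, and are given in the order of replicates 1 to 5, each from a separate tumor or liver. Reads assigned to genes numbered from 18004977 to 66354724 per library, and the sgTrp53+MYC libraries were the deepest. The targeted Trp53 stood at 18.7 to 79.9 CPM in sgTrp53+MYC tumors, against 90.8 to 176 in the other tumors and 28.8 to 36.4 in livers. Reads that matched more than 1 gene made up 12.9% of reads in the sgTrp53+MYC libraries and 4.48% to 4.81% in the other groups, and their part in the levels of genes with overlapping neighbors was not tested.

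Atp6v0a4 (GRCm39 chr6:38025418-38101521, minus strand) was high in the sgTrp53+MYC tumors and near 0 elsewhere. Its level there was 35.5, 39.3, 22.8, 5.26 and 41.1 CPM. It was 0.34, 0.695, 0, 1.35 and 0.673 CPM in Aldafermin+MYC tumors. It was 0.502, 0.947, 0.853, 1.79 and 0.281 CPM in FGF19+MYC tumors. Livers had 0.215, 0.257, 0.398, 0 and 0.199 CPM, which came from at most 9 reads in any of them. Every sgTrp53+MYC tumor lay above every other library, and replicate 4 lay far below its group. The mean of 28.8 ± 15 CPM (SD, n = 5) in sgTrp53+MYC tumors was 38.8 times that of the other tumors pooled over Aldafermin+MYC and FGF19+MYC, 0.743 CPM, and the fitted log2 difference of these pooled tumors from sgTrp53+MYC tumors was -5.3 ± 0.57 (SE). The same-strand neighbor D630045J12Rik, which shares 5.21% of the exon bases of Atp6v0a4, stood at 4.28 to 15.5 CPM in sgTrp53+MYC tumors and did not follow it (2.47 to 17.4 CPM in the other tumors).

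Atp6v1b1 (chr6:83719967-83735837, plus strand), which encodes a B subunit of the V1 head, was also highest in sgTrp53+MYC tumors, though with fewer reads than Atp6v0a4 there. It was at 5.96, 4.04, 7.61, 3.23 and 9.22 CPM in sgTrp53+MYC tumors. Aldafermin+MYC tumors had 1.6, 1.07, 0.614, 1.46 and 1.68 CPM. FGF19+MYC tumors had 1.56, 0.874, 1.35, 0.792 and 0.914 CPM. In livers a single read was counted over 5 libraries, 0.0717 CPM in replicate 1 and 0 in the others. No sgTrp53+MYC tumor overlapped the other tumors, replicate 4 was again the lowest of its group, and the ratio of means was 5.05. The other tumors in turn did not overlap the livers. Against the level of 3 reads in a liver library, 0.156 CPM, Atp6v1b1 was at least 38.4-fold higher in sgTrp53+MYC tumors.

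**Figure D1:**
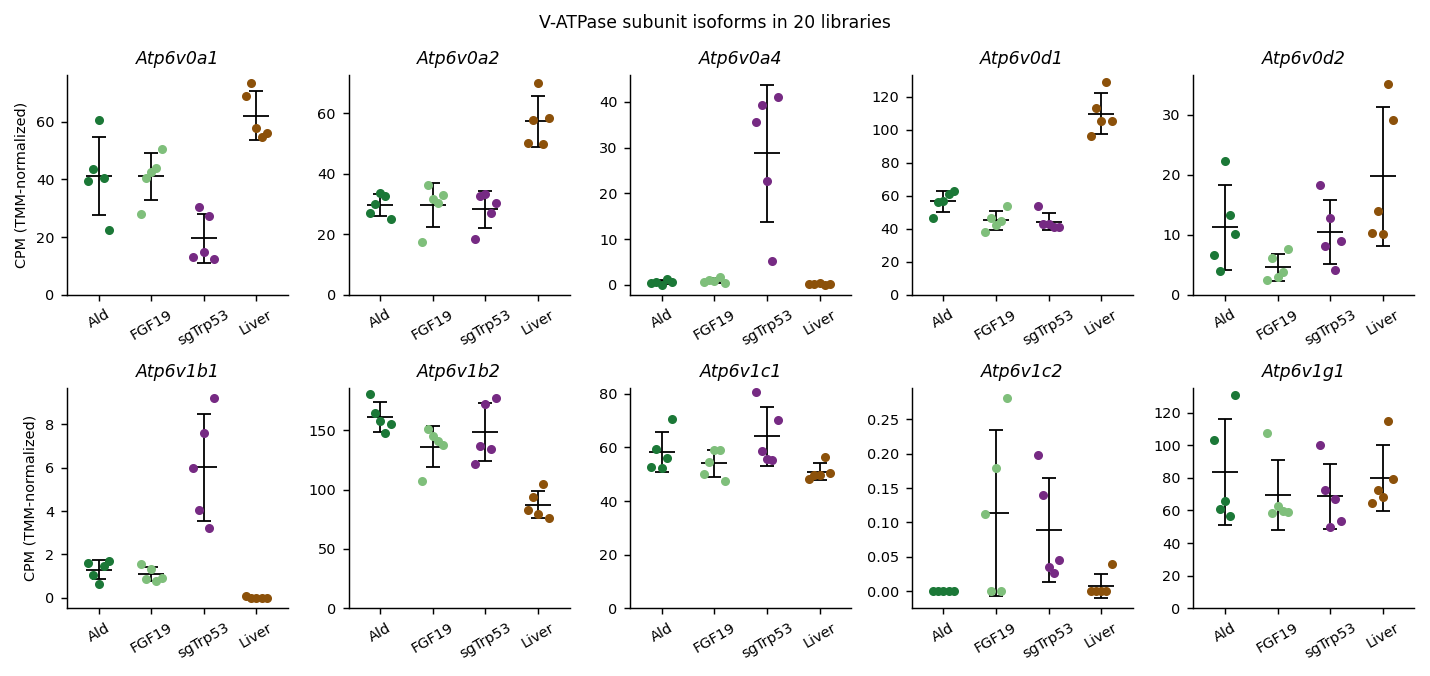
TMM-normalized CPM of the 10 isoform genes on a linear axis per gene, with 1 point per library (5 per group) and bars for the mean and SD. Atp6v0a4 and Atp6v1b1 were highest in all sgTrp53+MYC tumors (5.26 to 41.1 and 3.23 to 9.22 CPM), and Atp6v0a2 and Atp6v0d1 were highest in all livers.

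Atp6v0a1 (chr11:100881700-100954548, plus strand) went the other way. It stood at 13.2, 30.2, 14.9, 27.1 and 12.3 CPM in sgTrp53+MYC tumors. Aldafermin+MYC tumors had 39.3, 43.6, 60.5, 40.4 and 22.4 CPM, and FGF19+MYC tumors had 28.1, 40.3, 42.4, 43.8 and 50.3 CPM. Livers had 68.9, 73.2, 57.6, 54.6 and 55.9 CPM. The sgTrp53+MYC tumors lay below every liver and overlapped the other tumors only through replicates 2 and 4. Pooled Aldafermin+MYC and FGF19+MYC tumors had 2.1 times the mean of sgTrp53+MYC tumors (log2 difference 1.07 ± 0.24, SE). Atp6v0a2, the form known from the Golgi and endosomes, differed by 0.07 ± 0.16 on the same scale, with 18.3 to 33.3 CPM in sgTrp53+MYC tumors and 17.4 to 36.4 CPM in the others.

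Levels of different genes were compared per kilobase of exon. On that scale Atp6v0a4 made up 30.2% ± 16.2 (SD, n = 5) of the 4 a-subunit isoforms in sgTrp53+MYC tumors, with 49.2% as the highest, 35.7% as the median and 6.27% as the lowest share. It was 0.794% ± 0.626 in the Aldafermin+MYC group, 1.07% ± 0.708 in the FGF19+MYC group and 0.167% ± 0.113 in livers. Atp6v0a1 made up 12.3% ± 5.33 in sgTrp53+MYC tumors against 27.4% ± 2.29 with Aldafermin+MYC, 28.8% ± 3.75 with FGF19+MYC and 29.5% ± 2.16 in livers. By mean share, Tcirg1 was the most abundant isoform in all 4 groups. It was at 46.5% ± 4.15 with Aldafermin+MYC, 45% ± 5.93 with FGF19+MYC and 37.1% ± 3.28 in livers. It varied most in sgTrp53+MYC tumors, at 36.3% ± 12.5. Taking the longest coding transcript as length left Atp6v0a4 at 31.9% in sgTrp53+MYC tumors but changed that order. Tcirg1 was then at 31.7% in sgTrp53+MYC tumors, and in livers at 31% with Atp6v0a1 at 39.7%. With Aldafermin+MYC, Tcirg1 was at 39.4% and Atp6v0a1 at 37.4%, and with FGF19+MYC at 37.9% and 39%. For the B subunit, Atp6v1b1 made up 5.69% ± 1.68 in sgTrp53+MYC tumors and 1.2% ± 0.42 and 1.26% ± 0.56 in the other tumors, so B2 remained the main B isoform in all libraries.

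**Figure D2:**
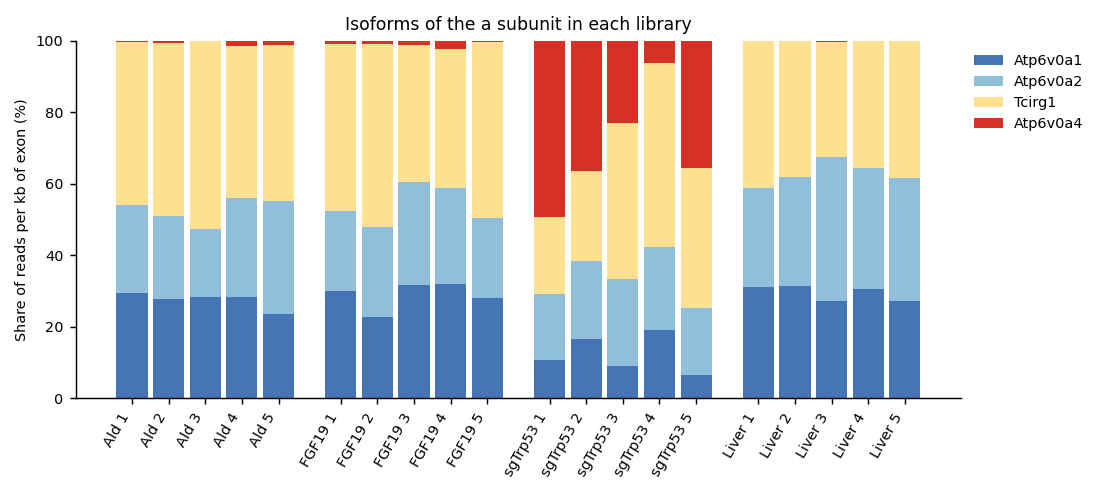
Share of each a-subunit isoform (percent of reads per kilobase of exon, summing to 100) in each of the 20 libraries. Atp6v0a4 took 6.27% to 49.2% in the 5 sgTrp53+MYC tumors and at most 2.21% elsewhere.

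The 5 sgTrp53+MYC tumors differed among themselves in markers of other cells, and those values stand beside the a4 and B1 levels here. Replicate 2 alone was high in cholangiocyte genes: Krt19 was at 191 CPM in it and at 0.0953 to 2.33 CPM in the other 4, and the summed level of the 8 cholangiocyte genes ranged from 23.9 to 799 CPM in the group, 19 to 115 CPM in the other tumors and 94.3 to 174 CPM in livers. Without replicate 2, the mean of Atp6v0a4 was 26.2 ± 15.9 CPM and that of Atp6v1b1 6.51 ± 2.56 CPM (SD, n = 4). Of 14 genes of the acid-secreting intercalated cells of the kidney, 5 passed the filter on low counts. Their master regulator Foxi1 and the channel Aqp6 had no reads in any library, and none of the 5 passed the test between pooled tumors and sgTrp53+MYC tumors. The summed level of the 14 was 110 to 169 CPM in sgTrp53+MYC tumors, 97.2 to 156 with Aldafermin+MYC, 124 to 166 with FGF19+MYC and 37.9 to 48.1 in livers. The tumor sums were carried by Car12, a carbonic anhydrase, at 74.2 to 145 CPM in all tumors and at most 0.273 CPM in livers, and without it the sgTrp53+MYC range was 16.7 to 37.6 CPM, against 19.3 to 32.7 in the other tumors. Single genes of the list went different ways. The median of Tfcp2l1 was 13.8 CPM in sgTrp53+MYC tumors, 12.8 with Aldafermin+MYC, 9.47 with FGF19+MYC and 12.1 in livers, in overlapping ranges. That of Car2 was 7.26 CPM in sgTrp53+MYC tumors, 6.24 with Aldafermin+MYC, 7.18 with FGF19+MYC and 17.6 in livers. The median of Slc4a9 was 0.362 CPM in sgTrp53+MYC tumors, under 3.8 CPM with Aldafermin+MYC and 2 CPM with FGF19+MYC. For Slc4a1 and Rhbg the sgTrp53+MYC median lay between those of the other tumor groups. The anion exchanger Slc26a4 did not pass the filter and stood at 0.0408 to 1.5 CPM in sgTrp53+MYC tumors. It was at most 0.279 CPM in the other tumors and at most 0.398 CPM in livers. The ammonia channel Rhcg reached 1.15 CPM in an sgTrp53+MYC tumor with a group median of 0. Without replicate 4, the lowest of the group, Atp6v0a4 averaged 34.7 ± 8.27 CPM.

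The genes whose pattern over the 20 libraries was most like that of Atp6v0a4, by the root mean square difference of gene-centered log2 CPM, were Ldb3 (1.4), 9130015G15Rik (1.48), Gm19744 (1.52), Tmem108 (1.58) and Gm19708 (1.69), where the median over 14332 genes was 2.94. Ldb3 averaged 15.3 CPM in sgTrp53+MYC tumors, 0.383 and 1.53 CPM in Aldafermin+MYC and FGF19+MYC tumors, and 0.0633 CPM in livers. No other V-ATPase gene was among these 5.

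The remaining isoforms showed no such split between tumor groups. Atp6v0d1 encodes the widespread d1 form, which links the rotor to the proton-carrying ring. It stood at 53.5, 42.7, 42.6, 40.9 and 41.2 CPM in sgTrp53+MYC tumors, at 46.6 to 62.8 CPM in Aldafermin+MYC tumors and at 38.1 to 53.6 CPM in FGF19+MYC tumors. These ranges overlapped, while livers lay above them all, at 95.8, 113, 105, 129 and 105 CPM. Atp6v1b2, the widespread B2 form, was at 122 to 178 CPM in sgTrp53+MYC tumors, 148 to 181 CPM with Aldafermin+MYC, 107 to 151 CPM with FGF19+MYC and 76.3 to 105 CPM in livers. Its log2 difference of pooled tumors from sgTrp53+MYC tumors was 0 within its SE of 0.11. Atp6v1c1, a regulatory stalk subunit that joins V1 to V0, differed by -0.19 ± 0.10 and Atp6v1g1, part of the peripheral stalk, by 0.15 ± 0.22. Atp6v1c2 had 0 reads in every Aldafermin+MYC tumor, at most 8 in an FGF19+MYC tumor, at most 12 in an sgTrp53+MYC tumor and 1 in all livers together. It did not pass the filter, and no fold is given for it.

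Atp6v0d2 varied widely within every group. It was at 18.2, 8.2, 12.8, 4.08 and 8.93 CPM in sgTrp53+MYC tumors, and at 6.66, 4.04, 22.3, 13.3 and 10.1 CPM in Aldafermin+MYC tumors. FGF19+MYC tumors had 2.4, 6.08, 2.92, 3.84 and 7.56 CPM, and livers 10.3, 13.9, 10.1, 35.1 and 29.2 CPM. Each group overlapped another. The highest tumor value, Aldafermin+MYC replicate 3, was also the tumor with the highest summed level of the 17 macrophage and osteoclast genes, 999 CPM against at most 529 in any other tumor. Of these genes 11 had their highest tumor value in it, among them Csf1r (106 CPM) and Gpnmb (117 CPM), and 6 had it in another tumor, among them the Kupffer cell gene Clec4f, at 1.89 CPM in this library and 47.2 CPM in FGF19+MYC replicate 5. Without Aldafermin+MYC replicate 3 the group mean went from 11.3 ± 7.09 to 8.53 ± 4.05 CPM. The part of these cells in the d2 level was not tested. The share of d2 in the d subunit per kilobase was 23.5% ± 10.7 in Aldafermin+MYC, 13.9% ± 4.38 in FGF19+MYC and 26.9% ± 8.6 in sgTrp53+MYC tumors and 21.8% ± 8.89 in livers. With the longest coding transcript as length, these became 11.3%, 6.12%, 13.1% and 10.3%.

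Aldafermin+MYC and FGF19+MYC tumors were compared to ask whether the analog and the hormone gave the same isoforms. Of the isoform genes, 8 passed the filter on low counts through the groups compared here, and none of them passed an adjusted p of 0.05 with edgeR's quasi-likelihood test (Benjamini-Hochberg over 14333 genes), nor did any gene, so that 0% of all genes were called higher and 0% lower. At an unadjusted p under 0.05 there were 1048 genes, and DESeq2 called 96. The largest differences were those of Atp6v0d2, with a log2 difference of 1.3 ± 0.49 (SE, adjusted p = 0.5), and Atp6v0a4, with -0.57 ± 0.7, which passed the filter only through sgTrp53+MYC tumors and is given without a test. The 95% interval was 0.08 to 0.58 for Atp6v0d1 and -0.03 to 0.52 for Atp6v1b2. The share of d2 differed by 9.62 percentage points (exact two-sided permutation test, n = 5 and 5, p = 0.0635, adjusted p = 0.169 over 16 share tests). The other shares, that of a4 left out, gave raw p from 0.167 to 0.96. A p above the threshold does not show equal levels, and 5 against 5 cannot give an exact p below 0.00794.

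Pooled Aldafermin+MYC and FGF19+MYC tumors were then set against livers. On the TMM scale, 6 of the 8 isoform genes that passed the filter through these groups were called. Atp6v1b1 and Atp6v1b2 were higher, where 39.2% of all genes were called higher, and Atp6v0a1, Atp6v0a2, Atp6v0d1 and Atp6v0d2 were lower, where 34.5% of all genes were called lower. Over 8 genes, these counts are not read as a result about the family. Atp6v0d1 had the most significant decrease, a log2 difference of -1.12 ± 0.1 (SE, adjusted p = 6e-09), and Atp6v0a2 had -0.95 ± 0.15 (adjusted p = 1.7e-05). Atp6v1b2 rose by 0.76 ± 0.12 (adjusted p = 9.1e-06), 1.7 times the liver mean with no overlap. Atp6v1b1 was at least 7.62-fold higher (adjusted p = 3.3e-08). Atp6v0a1 (-0.59 ± 0.22, adjusted p = 0.021) and Atp6v0d2 (-1.46 ± 0.4, adjusted p = 0.0029) overlapped with livers, and Atp6v1c1 (0.14 ± 0.11, adjusted p = 0.24) and Atp6v1g1 (-0.07 ± 0.22, adjusted p = 0.79) did not pass. For Atp6v0a4 the difference was 1.68 ± 0.74, given without a test, and the groups overlapped. Atp6v0a1 lost its call with no filter on low counts (-0.42, adjusted p = 0.11) and without Aldafermin+MYC replicate 5 or liver replicate 2, with -0.44 to -0.68 over the libraries left out.

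The size and the calls of these liver differences, and for some genes the sign of the estimate, rested on the scaling. The 10 hepatocyte marker genes, among them albumin, summed to 225174 to 283644 CPM in livers and to 13873 to 39580 CPM in Aldafermin+MYC and FGF19+MYC tumors. When counts were scaled by their totals alone, the median log2 difference of all 14333 genes from livers rose by 0.84. Atp6v0a1 then stood at 0.27 above livers without passing (adjusted p = 0.32), and Atp6v1g1 at 0.76. Atp6v0a2 (-0.09) and Atp6v0d2 (-0.57) no longer passed, and Atp6v0d1 kept its call at -0.27. Atp6v1c1 and Atp6v1g1 became called as higher (0.98, adjusted p = 4e-08, and adjusted p = 0.0011), and Atp6v1c1 also passed with no filter on low counts (0.32, adjusted p = 0.046). Atp6v1b1 and Atp6v1b2 were called higher on both scales.

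Isoform shares do not depend on such scaling, since each is a ratio within a library. Between pooled tumors and livers, the shares of B1, a2, Tcirg1 and G1 passed an adjusted p of 0.05. The adjustment ran over the 16 share tests, those of a4 among them. The tests against livers were exact two-sided permutation tests with n = 10 and 5, for which the smallest p is 0.000666. B1 made up 1.23% of the B subunit in tumors and 0.0265% in livers, a difference of 1.21 percentage points that had this smallest p (adjusted p = 0.0107). The share of a2 was 25.2% in tumors and 33.3% in livers (adjusted p = 0.0213), and that of Tcirg1 was 45.7% and 37.1% (adjusted p = 0.0178). The a-subunit shares are parts of the same whole in each library, so a fall in a2 appears as a rise in other isoforms. The passes of a2 and Tcirg1 are therefore not independent and are not separate changes. The share of a4 was 0.933% and 0.167%. It is given without a test, since Atp6v0a4 passed the filter only through sgTrp53+MYC tumors. G1 made up 97.1% of the G subunit in tumors and 94.3% in livers (adjusted p = 0.0178). The shares of a1 (28.1% and 29.5%), d2 and C2 did not pass, with adjusted p = 0.674 for each. Only the share of B1 passed when liver replicate 5 was left out, and 2 shares passed without liver replicate 3 or without replicate 4.

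For sgTrp53+MYC tumors against livers, the values of the isoform genes are given without a test. The log2 difference was -1.67 ± 0.27 (SE) for Atp6v0a1, -1.02 ± 0.18 for Atp6v0a2, -1.31 ± 0.12 for Atp6v0d1 and -0.92 ± 0.48 for Atp6v0d2. It was 0.77 ± 0.13 for Atp6v1b2, 0.33 ± 0.12 for Atp6v1c1, -0.22 ± 0.26 for Atp6v1g1 and 6.98 ± 0.87 for Atp6v0a4. The livers are shared with the preceding comparison, so the likeness of the values for a2, d1 and B2 is not independent. With total-count scaling, Atp6v0a1 was at -0.78, Atp6v0a2 at -0.12, Atp6v0d1 at -0.43, Atp6v0d2 at -0.04, Atp6v1b2 at 1.67, Atp6v1c1 at 1.2, Atp6v1g1 at 0.64 and Atp6v0a4 at 7.83. In this comparison 36.9% of all genes were called higher and 33% lower.

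**Figure D3:**
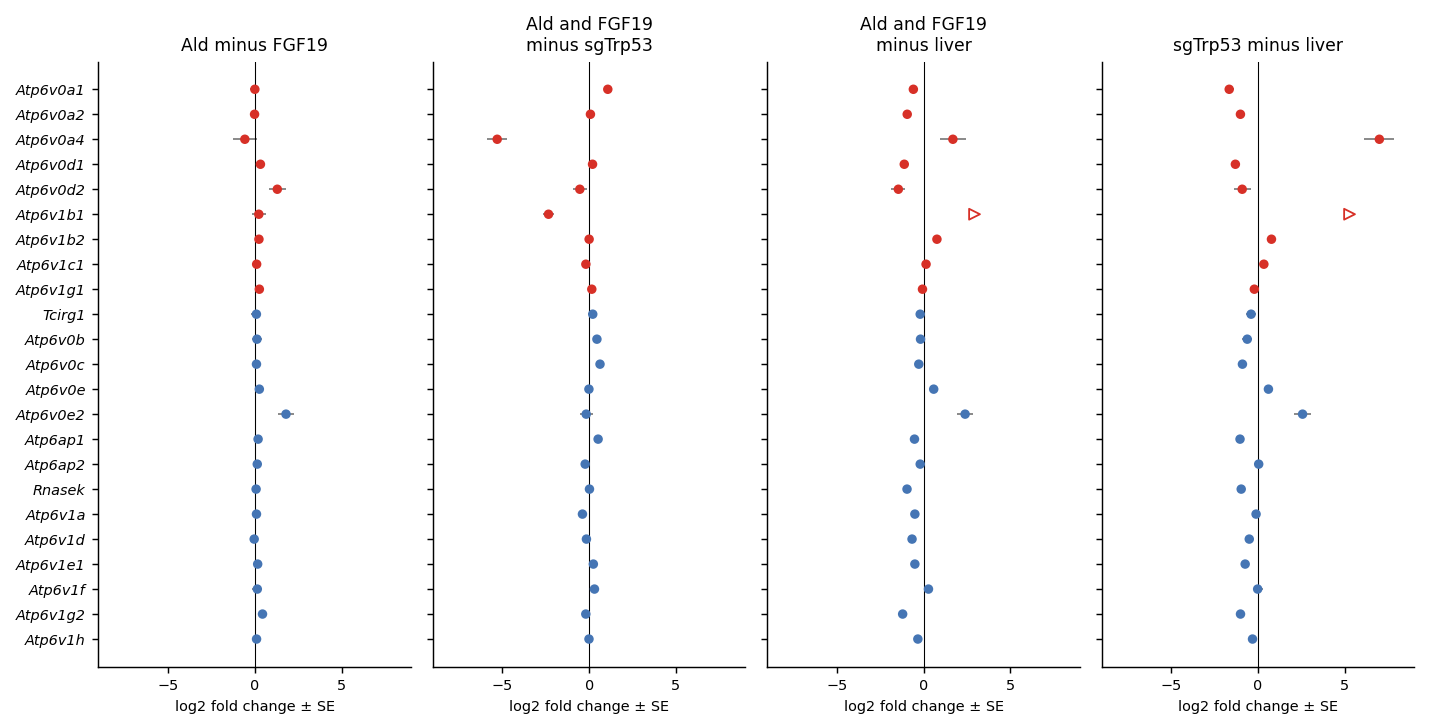
Log2 fold change ± SE on the TMM scale of 9 isoform genes (red) and 14 other V-ATPase genes (blue) in 4 comparisons, first group minus second. Open triangles mark the lower bound for Atp6v1b1 against livers, and between pooled tumors and sgTrp53+MYC tumors Atp6v0a4 (-5.3) and Atp6v1b1 (-2.34) lay farthest from 0, followed by Atp6v0a1 (1.07).

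The other 16 genes of the pump were taken by subunit name, and 14 of them passed the filter. The testis form Atp6v1e2 and the kidney form Atp6v1g3 did not, and Atp6v1g3 had no reads in any library. Between pooled tumors and sgTrp53+MYC tumors, 2 were called higher, where 11.6% of all genes were, and 1 was called lower, where 12.1% were. The higher genes were Atp6v0c, the proton-carrying ring subunit (log2 difference 0.62 ± 0.11, SE, adjusted p = 0.00044), and Atp6ap1, an accessory glycoprotein (0.51 ± 0.11, adjusted p = 0.0028). Atp6v1a, the catalytic A subunit, was lower (-0.39 ± 0.11, adjusted p = 0.014) and lost its call without sgTrp53+MYC replicate 5. The median of the 14 was 0, against -0.02 over all genes. Tcirg1, the a3 isoform, differed by 0.21 ± 0.25 (adjusted p = 0.59), with 22.5, 38.8, 61.3, 61.7 and 64.4 CPM in sgTrp53+MYC tumors and 35.1 to 95.2 CPM in the others. The near-identical pseudogene Atp6v0c-ps2 was at 0.506 to 1.47 CPM in the second table and 3.75 to 8.86 CPM in the first, and how reads were split between it and Atp6v0c was not tested.

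Against livers on the TMM scale, 2 of these 14 were higher and 8 lower in pooled Aldafermin+MYC and FGF19+MYC tumors, and 2 were higher and 7 lower in sgTrp53+MYC tumors. Of all genes, 39.2% were called higher and 34.5% lower in the former comparison and 36.9% and 33% in the latter. The higher genes were the same in both, Atp6v0e and Atp6v0e2, forms of a small V0 subunit. Atp6v0e2 was at 3.37 to 22.9 CPM in the pooled tumors, 2.89 to 13.8 in sgTrp53+MYC tumors and 0.795 to 2.15 in livers, a log2 difference of 2.39 ± 0.44 (adjusted p = 7.1e-05) and 2.56 ± 0.47 (adjusted p = 8.7e-05). Atp6v0e (0.58 ± 0.22, adjusted p = 0.023, and 0.59 ± 0.25, adjusted p = 0.038) lost both calls with RLE size factors. With total-count scaling the lower calls became 0 in both comparisons and the higher calls 11 and 7. None of the 14 passed between Aldafermin+MYC and FGF19+MYC tumors, where Atp6v0e2 had 1.8 ± 0.45 (adjusted p = 0.19).

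Genes around the pump were read from further lists. Of 28 lysosomal proteins, 11 were called higher in pooled tumors than in sgTrp53+MYC tumors and 0 lower, with a list median of 0.37, where 11.6% of all genes were called higher and 12.1% lower. The calls with the smallest adjusted p were Naglu, which degrades heparan sulfate (log2 difference 1.09 ± 0.18, SE, adjusted p = 0.00034), the peptidase Tpp1 (0.79 ± 0.14, adjusted p = 0.00062), the cathepsin Ctsb (0.67 ± 0.12, adjusted p = 0.00077) and Cln3 (0.72 ± 0.15, adjusted p = 0.0019). Macrophage genes moved the same way: 5 of 16 tested were higher and 0 lower, and their summed level was 311 to 999 CPM in pooled tumors and 183 to 529 CPM in sgTrp53+MYC tumors. Their part in the lysosomal calls was not tested. Against livers 3 lysosomal genes were higher and 17 lower in pooled tumors, and 3 were higher and 23 lower in sgTrp53+MYC tumors, beside 39.2% and 34.5% of all genes, and 36.9% and 33%. Of the 4 MiT/TFE factors, 0 passed between tumor groups, and Tfe3 and Mitf were lower than livers in both. Calls against livers in this and the next paragraph are on the TMM scale, where the lysosomal list medians were -0.42 and -1.01. Total-count scaling raised the median log2 difference of all genes from livers by 0.84 in pooled and 0.88 in sgTrp53+MYC tumors. Calls of these lists on that scale were not read.

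The 2 lists that follow stand beside the same shares of all genes, 11.6% higher and 12.1% lower between the tumor groups, 39.2% and 34.5% for pooled tumors and 36.9% and 33% for sgTrp53+MYC tumors against livers. Of 11 assembly and regulatory genes tested, Rogdi, part of the RAVE-type assembly complex, was higher in pooled tumors than in sgTrp53+MYC tumors (1.07 ± 0.12, adjusted p = 8.2e-06), and Dmxl2, a subunit of the same complex (-0.58 ± 0.16, adjusted p = 0.013), and Oxr1 (-0.51 ± 0.12, adjusted p = 0.0047) were lower. Against livers 4 were higher and 4 lower in pooled tumors, and 4 higher and 3 lower in sgTrp53+MYC tumors. Of 12 genes of the Ragulator and Rag GTPases, through which the pump is linked to mTORC1, 2 were higher and 4 lower between the tumor groups, among them Lamtor1 (0.77 ± 0.16, adjusted p = 0.0017) and Rragd (-1.02 ± 0.24, adjusted p = 0.0051). Against livers 3 were higher and 5 lower in each tumor set, and Rragd rose by 3.47 ± 0.31 (adjusted p = 5.1e-09) and 4.49 ± 0.34 (adjusted p = 6.9e-10).

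**Figure D4:**
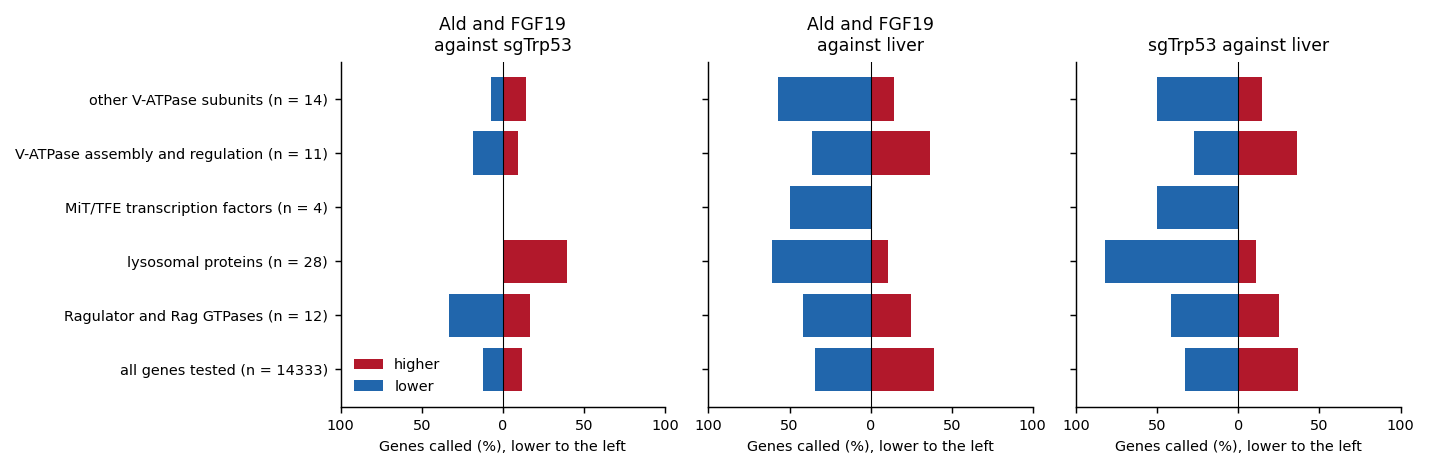
Percent of the tested genes of 5 lists called higher (right) or lower (left) on the TMM scale in 3 comparisons, with all 14333 genes below for reference. Lysosomal genes had 11 of 28 higher and 0 lower between pooled tumors and sgTrp53+MYC tumors, and 23 of 28 lower between sgTrp53+MYC tumors and livers. Calls against livers are shown for this scale only, and apart from the other V-ATPase subunits they were not read with total-count scaling.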

How the data were processed

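The authors sequenced poly(A) RNA of 15 liver tumors and 5 livers with a stranded Illumina kit, aligned reads to mm39 with HISAT2 (version not given in the sources used here; base calls by bcl2fastq 2.20.0.422) and counted reads per RefSeq gene with htseq-count. The strand setting is not given. The deposited values are raw read counts in 2 tables, the second holding the 5 sgTrp53+MYC libraries, with 5 summary lines of unassigned reads (33.7% to 56.2% of all reads per library) that were removed. No column was left out.

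The 14333 of 50559 genes that reached 1 CPM in 5 or more libraries were fitted with edgeR 4.0.16 (R 4.3.3): TMM factors, the quasi-likelihood test, 1 model with 4 groups, Benjamini-Hochberg adjustment over all genes tested and a threshold of 0.05. The fit was tested on simulated counts in which a small set of genes changed in the sgTrp53+MYC columns only. Those counts held no broad shift between groups, so this test does not bear on the scaling against livers. Isoform shares used reads per kilobase of GRCm39 exon union (GENCODE vM39) and exact two-sided permutation tests (scipy 1.17.1). A floor of 3 reads per library was used for bounds, which cover counting error only. Replicates were not copies of each other (chi-square per degree of freedom of at least 13.9). Positions are GRCm39, from the annotation, and promoters are GRCm38.p6.

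The isoform genes, the other lists and the tests were chosen with earlier results of these data known. Named genes were all 10 isoform genes, genes of other lists at the floor or called with the smallest adjusted p (at most 4 per list and comparison), the 5 genes most like Atp6v0a4, and Trp53. D630045J12Rik, Atp6v0c-ps2 and single marker genes were named after their values were seen. Alternatives were DESeq2 1.42.0, a likelihood ratio test, RLE factors, other filters, fewer groups, a replicate block and leaving out each library, and total-count scaling was added after the data were seen.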

Additional observations from a re-analysis of the deposited data

Results flagged for a closer look

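In 5 of 40 groups of 5 libraries, 1 library stood apart from the other 4 by Dixon's test, where chance gives about 1 in 20, or 2. Atp6v0d1 was highest in sgTrp53+MYC replicate 1 at 53.5 CPM. Atp6v1g1 was highest in FGF19+MYC replicate 1 at 108 CPM and in liver replicate 4 at 115 CPM. The single reads of Atp6v1b1 in liver replicate 1 (0.0717 CPM) and of Atp6v1c2 in liver replicate 5 (0.0398 CPM) stood apart from libraries without any. A single read against 0 always gives a Dixon ratio of 1, so the 5 flags cannot be set against the 2 given by chance.

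For 3 subunits the difference from livers was not the same in pooled Aldafermin+MYC and FGF19+MYC tumors as in sgTrp53+MYC tumors, as tested by the contrast of the tumor groups (edgeR, adjusted p as in the report). The log2 difference between them was 0.62 for Atp6v0c, 0.51 for Atp6ap1 and -0.39 for Atp6v1a. Livers cancel in this difference, so these are the calls between tumor groups given above and not further results. That of Atp6v1a was lost without sgTrp53+MYC replicate 5.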

How the results depend on the processing

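The main limit is the scaling against livers. With total-count scaling, chosen after seeing the data, the other subunits called higher and lower became 11 and 0 in pooled tumors and 7 and 0 in sgTrp53+MYC tumors, and the median over isoform genes for sgTrp53+MYC tumors against livers turned from -0.22 to 0.64. In pooled tumors the log2 difference became 0.27 for Atp6v0a1, 0.76 for Atp6v1g1, 0.67 for Tcirg1, 0.65 for Atp6v0b, 0.57 for Atp6v0c, 0.32 for Atp6ap1, 0.64 for Atp6ap2, 0.34 for Atp6v1a, 0.18 for Atp6v1d, 0.34 for Atp6v1e1 and 0.51 for Atp6v1h. In sgTrp53+MYC tumors it became 0.76 for Atp6v1a, 0.37 for Atp6v1d, 0.13 for Atp6v1e1, 0.83 for Atp6v1f and 0.55 for Atp6v1h. Of these, Atp6v0a1 and Atp6v1d in pooled tumors and Atp6v1e1 in sgTrp53+MYC tumors did not pass. With no filter, which moved the median of all genes against livers by 0.18 and 0.29 and let Atp6v1c2 in, the isoform medians were -0.204 for pooled tumors against sgTrp53+MYC tumors (-0.0035 as reported) and 0.34 for sgTrp53+MYC tumors against livers, and lower subunits fell from 8 to 5 and from 7 to 4. RLE factors left 1 higher subunit in each liver comparison, and DESeq2 1 for sgTrp53+MYC tumors. DESeq2 and the likelihood ratio test called 1 subunit, Atp6v0e2, between Aldafermin+MYC and FGF19+MYC tumors.

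Leaving out 1 library gave 5 to 6 called isoform genes against livers, with Atp6v0a4 not counted. In the main fit of this comparison, 39.2% of all genes were called higher and 34.5% lower. The counts are therefore not read as a result about the family. Between Aldafermin+MYC and FGF19+MYC tumors 0 isoform genes were called in each of these fits, where the main fit called 0% of all genes. Without liver replicate 5, only the share of B1 passed against livers. Between Aldafermin+MYC and FGF19+MYC tumors, 0 to 1 shares passed. Shares of the a subunit are not independent of each other. The share of d2 passed between these tumors without Aldafermin+MYC replicate 2. Isoform medians ranged from -0.0672 to 0.0686 for pooled against sgTrp53+MYC tumors and from -0.396 to -0.0522 for sgTrp53+MYC tumors against livers, the ends coming without sgTrp53+MYC replicate 1 and liver replicate 4. Other subunits called higher numbered 2 to 3, 1 to 2 and 1 to 2, and lower 0 to 1, 7 to 8 and 6 to 8, for the contrasts of pooled with sgTrp53+MYC tumors, of pooled tumors with livers, and of sgTrp53+MYC tumors with livers. The losses of a higher call came without liver replicates 1 or 3 and, for sgTrp53+MYC tumors, also without replicates 1 or 2 or liver replicate 2, and all were of Atp6v0e.

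Equal replicate numbers belong to different mice, and of 30 same-number pairs 6 correlated above 0.1 (median r -0.0226), so the numbers do not pair samples. A replicate block gave 3120 calls in place of 3399 for pooled against sgTrp53+MYC tumors. With Atp6v0a4 left out, it called 6 isoform genes against livers, as in the main fit. It called 10544 of all 14333 genes tested there.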

Other observations

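Other cell type lists were read on the TMM scale as a check of the tissue, beside the shares of all genes called. These shares were 11.6% higher and 12.1% lower for pooled against sgTrp53+MYC tumors. Against livers they were 39.2% higher and 34.5% lower in pooled tumors, and 36.9% and 33% in sgTrp53+MYC tumors. All 10 hepatocyte genes were lower than livers in both tumor sets, and 3 were higher and 1 lower in pooled tumors than in sgTrp53+MYC tumors. Of 7 cholangiocyte genes tested, 4 were lower in pooled tumors than in sgTrp53+MYC tumors and 4 were lower than livers, while sgTrp53+MYC tumors had 1 higher and 2 lower than livers. Among sgTrp53+MYC tumors, replicate 2 alone was high in such genes, with Krt7 at 80.9 CPM and Krt19 at 191 CPM. The others of that group had at most 0.265 and 2.33 CPM, and calls of this list without replicate 2 were not read. Of the 5 intercalated cell genes tested, 1 was higher and 2 lower than livers in each tumor set. Of 6 endothelial genes, 3 were lower than livers in pooled tumors and 4 in sgTrp53+MYC tumors. Of 5 erythroid genes tested, 3 and 4 were lower than livers, and 2 were higher in pooled tumors than in sgTrp53+MYC tumors. Macrophage genes, 16 tested, had 3 higher and 5 lower in pooled tumors and 2 higher and 7 lower in sgTrp53+MYC tumors against livers. The 1 T cell gene tested passed in none of the comparisons.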
